A study of Mus musculus with 21 samples.

Results

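Metallothioneins and zinc transporters set how much zinc, and to a lesser degree copper, a cell takes up, stores and releases. The 9 genes described here are Mt1 and Mt2 (metallothioneins), Mtf1 (the metal-sensing transcription factor), Slc30a1, Slc30a5 and Slc30a7 (zinc exporters of the ZnT family) and Slc39a1, Slc39a6 and Slc39a10 (zinc importers of the ZIP family). They were chosen by name, to see whether genes of metals other than iron differ with iron chelation, iron supply, cytokines or maturation in mouse eosinophils. All 9 of the 23148 gene symbols listed in any of the 3 deposited tables were found in each table, and all 9 passed the filter on low counts in each.

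Poly(A) RNA of 21 wild-type mouse libraries was sequenced. Bone marrow-derived eosinophils (BMDEs), which are grown from bone marrow in culture, received iron as ferric ammonium citrate at 10 µM (FAC, n = 4), the iron chelator deferoxamine at 5 µM (DFO, n = 3), or neither (control, n = 2). The cultures had 100 ng/mL SCF and FLT3L for 4 days and then 10 ng/mL IL-5, with FAC or DFO from day 4 and RNA taken on day 7. Eosinophils given type 2 cytokines (T2, n = 3) were set against resting eosinophils (n = 3), and bone marrow eosinophils (n = 3) against granulocyte-monocyte progenitors (GMPs, n = 3), the cells from which granulocytes arise. Each T2 library's treatment label has IL-4 and GM-CSF plus an interleukin of its own (IL-33, IL-34 and IL-35 in libraries 1, 2 and 3). One culture text stands beside every sample, so how the bone marrow, resting and T2 cells were obtained is not given in the sources used here. Libraries carry the numbers of their titles (FAC 5 to 8, DFO 9, 11 and 12, control 1 and 2). Nothing says that they came from separate animals or cultures, so the p-values measure the spread between these libraries, which may be technical.

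Metallothioneins are small cysteine-rich proteins that bind zinc, copper and cadmium but are not known as iron stores. When free zinc rises, MTF1 binds zinc, moves to metal response elements in gene promoters and raises metallothionein and Slc30a1 transcription, while Slc39a10 is one of the genes it is known to repress. Metallothionein transcription is also raised by glucocorticoids and inflammatory cytokines, so a change in their RNA alone does not tell metals apart from hormones or cytokines.

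Mt1 lies on mouse chromosome 8 (GRCm38, chr8:94179082-94180327, plus strand) and Mt2 lies 5513 bases upstream on the same strand (chr8:94172664-94173568). Slc30a1 lies at chr1:191906767-191913247 on the plus strand. RefSeq windows of 300 bases (250 before to 50 after a transcription start, GRCm38.p6) were found for 8 of the 9 genes and searched for the core letters of the metal response element, TGCACNC and TGCGCNC, on both strands. The Mt2 window held 4 matches, the Mt1 window 3, the Slc30a1 window 2 and the Slc30a5 window 1. None was found in the windows of Mtf1, Slc30a7, Slc39a1 and Slc39a10. Of all 32851 windows searched, 25.7% held at least 1 match, 7.11% at least 2, 1.97% at least 3 and 0.517% at least 4. The stretches below are shown because these 3 genes are the classical MTF1 targets and the data bear on them. Capitals mark each match, written 5′ to 3′ on the gene's strand; those that read GNGNGCA are matches on the other strand. The first 250-base stretch of each gene ends at the last base before its RefSeq start (Mt1 chr8:94178839-94179088, Mt2 chr8:94172368-94172617, Slc30a1 chr1:191906531-191906780). The 30-base stretches are the first bases after the RefSeq starts of Mt1 and Mt2. The second Slc30a1 match begins at base 31 after its start and is not in the stretch shown. For Mt2 that stretch (chr8:94172618-94172647) lies before the gene start at 94172664 given above, so it cannot be taken as transcribed.
Mt1, before the start: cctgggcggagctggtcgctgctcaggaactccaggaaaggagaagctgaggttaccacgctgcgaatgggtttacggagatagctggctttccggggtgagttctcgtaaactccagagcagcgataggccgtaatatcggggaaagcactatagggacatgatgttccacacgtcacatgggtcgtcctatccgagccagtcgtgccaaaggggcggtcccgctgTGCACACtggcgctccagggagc
Mt1, after the start: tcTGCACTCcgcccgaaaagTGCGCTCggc
Mt2, before the start: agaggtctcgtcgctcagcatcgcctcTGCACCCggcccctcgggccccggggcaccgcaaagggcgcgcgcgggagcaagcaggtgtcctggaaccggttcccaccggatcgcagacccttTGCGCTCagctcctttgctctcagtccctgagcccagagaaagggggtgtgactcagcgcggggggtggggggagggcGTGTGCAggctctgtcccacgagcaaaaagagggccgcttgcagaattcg
Mt2, after the start: ggtcGTGCGCAggcccaggggcgtgtgctg
Slc30a1, before the start: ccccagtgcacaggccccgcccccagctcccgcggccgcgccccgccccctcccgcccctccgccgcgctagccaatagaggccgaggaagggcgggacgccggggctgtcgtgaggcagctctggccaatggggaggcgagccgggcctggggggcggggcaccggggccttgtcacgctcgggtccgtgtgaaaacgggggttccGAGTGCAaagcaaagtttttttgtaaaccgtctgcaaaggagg

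Levels below are in CPM, the share of a library's counts after TMM scaling. Calls were made where edgeR's quasi-likelihood F test (two-sided) gave an adjusted p under 0.05, with Benjamini-Hochberg adjustment over all genes tested in a comparison. BMDE libraries held 16809789 to 17991878 counts, T2 and resting libraries 16073573 to 18995878, and bone marrow eosinophil and GMP libraries 25857382 to 28992668. Libraries FAC 6 and bone marrow eosinophil 3 stood apart from the others of their groups, and results that rest on them are given with and without them. Both were rich in short transcripts. The median deviation of transcripts under 1000 bases minus that of transcripts over 3000 bases, on the log2 scale, was 0.97 in FAC library 6 and from -0.12 to 0.15 in the other FAC libraries. It was 1.59 in bone marrow eosinophil library 3, against -0.15 and 0.35 in the other bone marrow eosinophil libraries. This matters for the 9 genes because their transcripts differ in length: the median annotated transcript has 633 bases for Mt1 and 449.5 for Mt2, but 5498 for Slc39a10, 7592.5 for Mtf1 and 9020 for Slc30a7.

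On scales corrected for length, Mt1 was the most abundant of the 9 in most groups. By the authors' TPM it averaged 582 ± 164 in FAC BMDEs (n = 4), 376 ± 19.6 in DFO BMDEs (n = 3) and 431 ± 17.6 in control BMDEs (n = 2, all ± SD). Next came Slc30a5, which supplies zinc to enzymes of the secretory pathway, at 64.6 ± 11.8 TPM in FAC, 66.9 ± 1.41 in DFO and 73.4 ± 1.37 in control BMDEs. Mt2, Slc30a7 and Slc39a1 came after it, and in FAC BMDEs the values of Mt2 overlapped those of the other 3, while Slc39a1 (39.9 to 44.5 TPM) lay below Slc30a5 (48.8 to 77.4 TPM). Slc39a10 had the lowest mean in all 3 arms, overlapping with Mtf1 in FAC libraries, at 3.86 ± 1.28 TPM in FAC, 7.49 ± 0.583 in DFO and 6.30 ± 0.686 in control BMDEs. In T2 eosinophils Mt1 was also first by the authors' FPKM, at 33.1 ± 2.60, whereas in resting eosinophils it was at 14.5 ± 3.81 FPKM, a value that overlapped that of Slc39a1 (14.8 ± 0.902) and lay under that of Slc30a5 (20.1 ± 0.897, n = 3 each). In bone marrow eosinophils Mt1 reached 201 ± 3.64 TPM, against 185 ± 42.9 TPM in GMPs (SD, n = 3 each). On this scale the groups overlapped (197 to 205 TPM in bone marrow eosinophils and 148 to 232 TPM in GMPs), unlike in CPM below.

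In FAC against DFO BMDEs, the widest contrast of iron supply, Mt1, Mt2 and Slc30a5 were higher and Slc39a10 was lower, and the other 5 genes did not pass the test. These 4 of 9 genes (3 higher, 1 lower) compare with 48.2% of all genes called in this contrast (23.5% higher and 24.8% lower), so the share called was near the background. FAC and DFO libraries did not overlap for 6 of the 9, against 55.7% of all genes. Against control BMDEs, none of the 9 was called with FAC or with DFO in the edgeR fit of all 9 libraries without a length offset. The median log2 fold change of the 9 was 0.05 for FAC against DFO, against -0.01 over all genes tested.

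Mt1 had 109, 213, 83.4 and 99.2 CPM in FAC libraries 5 to 8, against 66.8, 60.8 and 59.3 CPM in DFO libraries 9, 11 and 12; the control libraries had 78.6 and 73.5 CPM. All FAC libraries lay above all control libraries and all DFO libraries lay below them, and FAC library 6 was highest by a wide gap. FAC against DFO was at 1.02 on the log2 scale with all libraries (SE 0.284, adjusted p = 0.0161, edgeR), a call that ended without DFO library 11 (adjusted p = 0.0581) or 12 (adjusted p = 0.060). FAC against control gave 0.73 (SE 0.323, adjusted p = 0.221) and DFO against control gave -0.29 (SE 0.331, adjusted p = 0.637), both short of the threshold. Without FAC library 6, which also reduces the shared spread, all 3 comparisons were called in edgeR: 0.66 for FAC against DFO (adjusted p = 4.82e-06), 0.36 for FAC against control (adjusted p = 0.00964) and -0.29 for DFO against control (adjusted p = 0.0195).

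Mt2, the neighbouring metallothionein, had 10.0, 17.6, 7.31 and 8.91 CPM in FAC libraries 5 to 8, against 6.18, 6.21 and 5.96 CPM in DFO libraries 9, 11 and 12; it had 8.15 and 7.22 CPM in control libraries. FAC and DFO did not overlap, whereas FAC library 7 lay within the control values. For FAC against DFO the log2 fold change was 0.84 (SE 0.272, adjusted p = 0.0296, edgeR), or 0.53 without FAC library 6 (adjusted p = 0.00169), and leaving out any 1 DFO library ended the call (adjusted p from 0.0776 to 0.0872). There were between 10.9 and 12.1 Mt1 counts for each Mt2 count in FAC libraries, 9.79 to 10.8 in DFO libraries and 9.65 to 10.2 in control libraries. Mt1 and Mt2 are close paralogs, and how the authors' counting divided reads that match both is not given in the sources used here.

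The Mt1 level followed the balance of short and long transcripts across BMDE libraries. That balance was 0.15, 0.97, -0.12 and 0.13 in FAC libraries 5 to 8, against -0.27, -0.32 and -0.31 in DFO libraries 9, 11 and 12; it was -0.12 and -0.11 in the controls. With a length trend per library entered as an offset in edgeR, Mt1 stayed called for FAC against DFO, with a change of 0.53 on the log2 scale (SE 0.119, adjusted p = 0.00379). Mt2 was at 0.29 (SE 0.108, adjusted p = 0.0462). Neither was called against the controls, with Mt1 at 0.37 for FAC (adjusted p = 0.113, edgeR) and at -0.16 for DFO (adjusted p = 0.462). All DFO libraries had a lower balance than all FAC libraries, so length balance and iron treatment cannot be told apart here. The offset may take out a part of either.

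**Figure D1:**
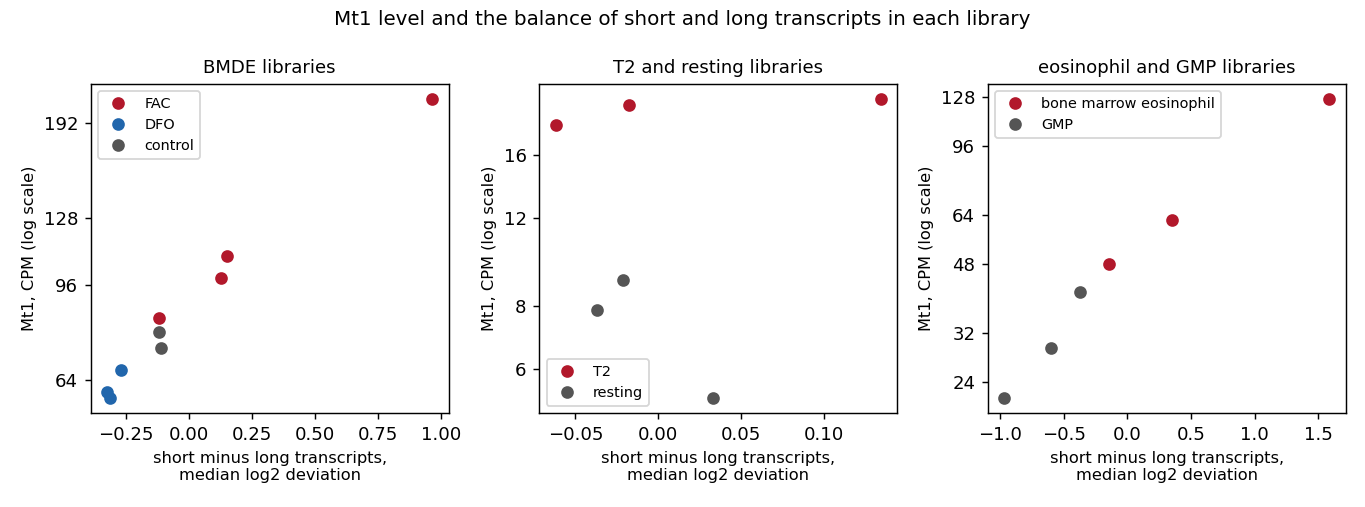
Mt1 level in CPM (log axis) against the balance of short and long transcripts of the same library (median log2 deviation of transcripts under 1000 bases minus that of transcripts over 3000 bases), 1 point per library. In the BMDE panel and in the eosinophil and GMP panel Mt1 goes up with the balance, with FAC library 6 at 0.97 and bone marrow eosinophil library 3 at 1.59 farthest right; in the T2 panel T2 and resting libraries are apart at like balances.

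Mtf1 did not pass the test in any of the 3 comparisons with all libraries and no offset. It had 47.9, 33.1, 52.0 and 44.8 CPM in FAC libraries 5 to 8, against 55.8, 52.9 and 52.5 CPM in DFO libraries 9, 11 and 12; it had 47.0 and 44.4 CPM in control libraries. The DFO libraries lay above all others, and FAC library 6 was lowest. Its log2 fold change of FAC against DFO was -0.27 (SE 0.132, adjusted p = 0.113, edgeR), and it was 0.12 with the length offset (adjusted p = 0.0956), so its sign turned with the offset. It was called at -0.33 without FAC library 7 (adjusted p = 0.0466). FAC against control was at -0.04 (SE 0.15, adjusted p = 0.878) and, with the length offset, at 0.24 (adjusted p = 0.0435). DFO against control was 0.23 (SE 0.159, adjusted p = 0.403), called at the same size without FAC library 6 (adjusted p = 0.0145).

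Of the exporters, Slc30a1, which sits in the plasma membrane and is an MTF1 target in mouse, had 31.8, 34.6, 30.6 and 30.5 CPM in FAC libraries 5 to 8, against 33.1, 32.1 and 34.5 CPM in DFO libraries 9, 11 and 12; it had 32.3 and 32.0 CPM in the controls. All 3 arms overlapped. The change on the log2 scale was -0.06 for FAC against DFO (SE 0.0697, adjusted p = 0.492, edgeR), -0.01 for FAC against control (SE 0.0792) and 0.05 for DFO against control (SE 0.0834). With the length offset the estimates were 0.22, 0.19 and -0.04, none of them called.

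Slc30a5 had 142, 129, 151 and 138 CPM in FAC libraries 5 to 8, against 119, 120 and 116 CPM in DFO libraries 9, 11 and 12; the controls had 140 and 135 CPM. DFO libraries were below all others, and FAC and control libraries overlapped. FAC against DFO was at 0.24 on the log2 scale (SE 0.0675, adjusted p = 0.0167, edgeR; without any 1 DFO library, adjusted p from 0.0513 to 0.0679), and DFO against control was at -0.21 (SE 0.08, adjusted p = 0.126). DFO against control was called without FAC library 6 (-0.22, adjusted p = 0.00423) and with the length offset (-0.22, adjusted p = 0.0265). On the authors' TPM scale the FAC and DFO means (64.6 and 66.9) stood the other way round, with FAC libraries from 48.8 to 77.4 TPM and DFO libraries from 66.0 to 68.5 TPM. Slc30a7, a Golgi exporter, had 62.4 to 81.4 CPM in FAC libraries, 68.4 to 73.0 CPM in DFO libraries and 72.0 and 73.6 CPM in controls, and was not called in any of the 3 comparisons in that fit. It was called for FAC against DFO without FAC library 6 (0.14, adjusted p = 0.0231) and with the length offset (0.54, adjusted p = 0.000797).

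Among the importers, Slc39a10 had 13.1, 9.49, 17.4 and 15.2 CPM in FAC libraries 5 to 8, against 20.9, 23.5 and 23.4 CPM in DFO libraries 9, 11 and 12; it had 18.7 and 21.4 CPM in the controls. All FAC libraries lay below all others, while DFO and control overlapped. On the log2 scale the change was -0.71 for FAC against DFO (SE 0.172, adjusted p = 0.00811, edgeR) and -0.54 for FAC against control (SE 0.194, adjusted p = 0.146). Without FAC library 6 they were -0.56 (adjusted p = 0.000134) and -0.39 (adjusted p = 0.0197). With the length offset they were -0.44 (adjusted p = 0.00341) and -0.36 (adjusted p = 0.0655).

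Slc39a6, the closest relative of Slc39a10 among the importers, had 52.1 to 58.5 CPM in FAC libraries, 49.7 to 50.5 CPM in DFO libraries and 52.7 and 56.5 CPM in controls. FAC against DFO was at 0.14 (log2, SE 0.0645, adjusted p = 0.101, edgeR), and it was called without FAC library 6 (0.16, adjusted p = 0.0211) and with the length offset (0.27, adjusted p = 0.00431). Slc39a1, a broadly expressed importer of the plasma membrane, had 58.3 to 74.9 CPM in FAC libraries, 68.8 to 69.5 CPM in DFO libraries and 61.9 and 62.1 CPM in controls. It was not called in these 3 comparisons with all libraries, without FAC library 6 or with the length offset.

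**Figure D2:**
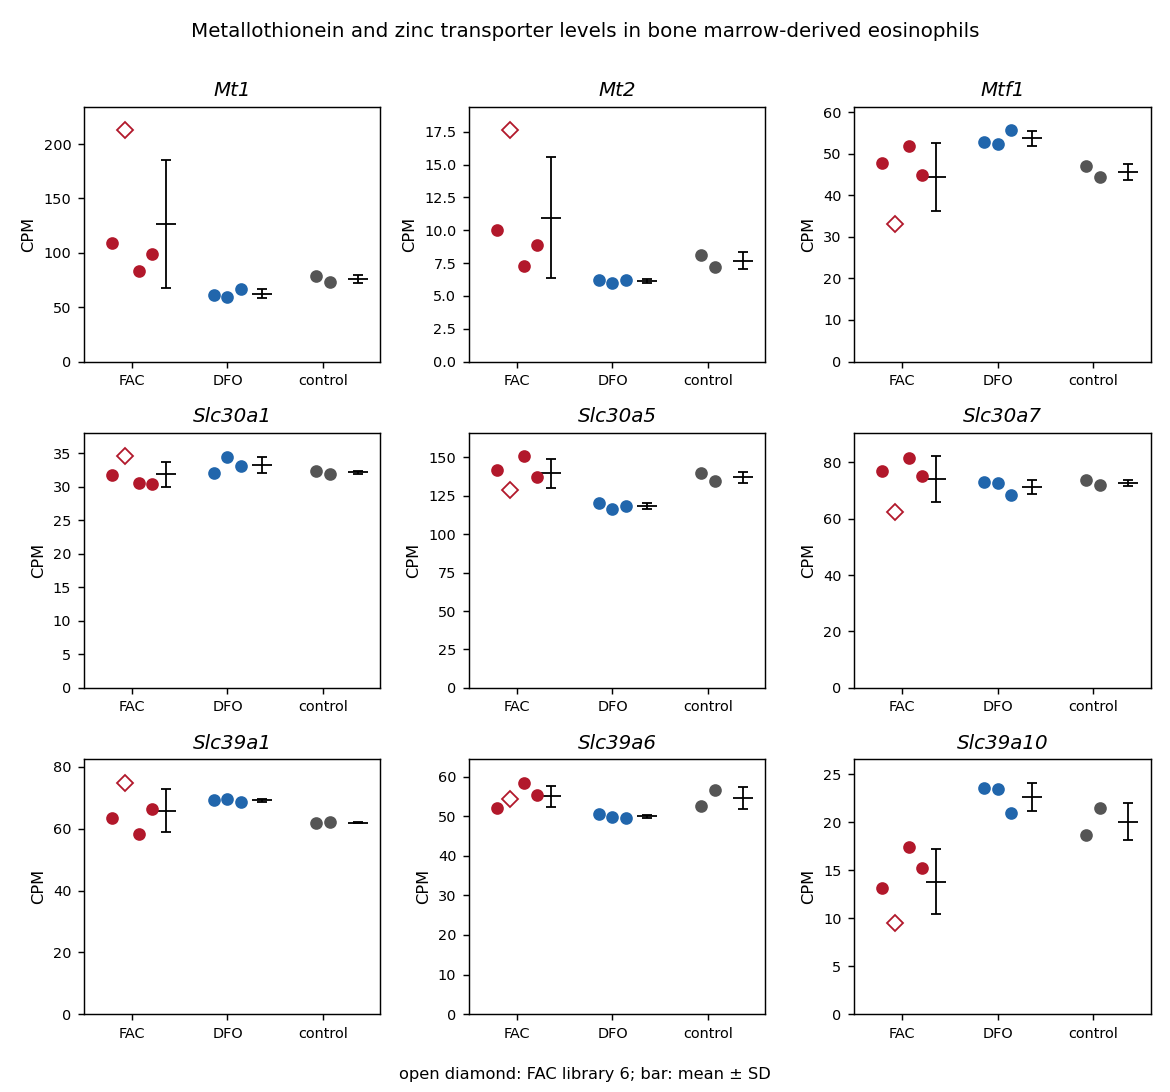
Level in CPM of each of the 9 genes in every BMDE library, with FAC left, DFO in the middle and control right; bars give mean ± SD, and FAC library 6 is the open diamond. Mt1 is lowest in DFO libraries (59.3 to 66.8 CPM) and highest in FAC libraries (83.4 to 213 CPM), Slc39a10 is lowest in FAC libraries, and Slc30a1 overlaps in all arms.

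**Figure D3:**
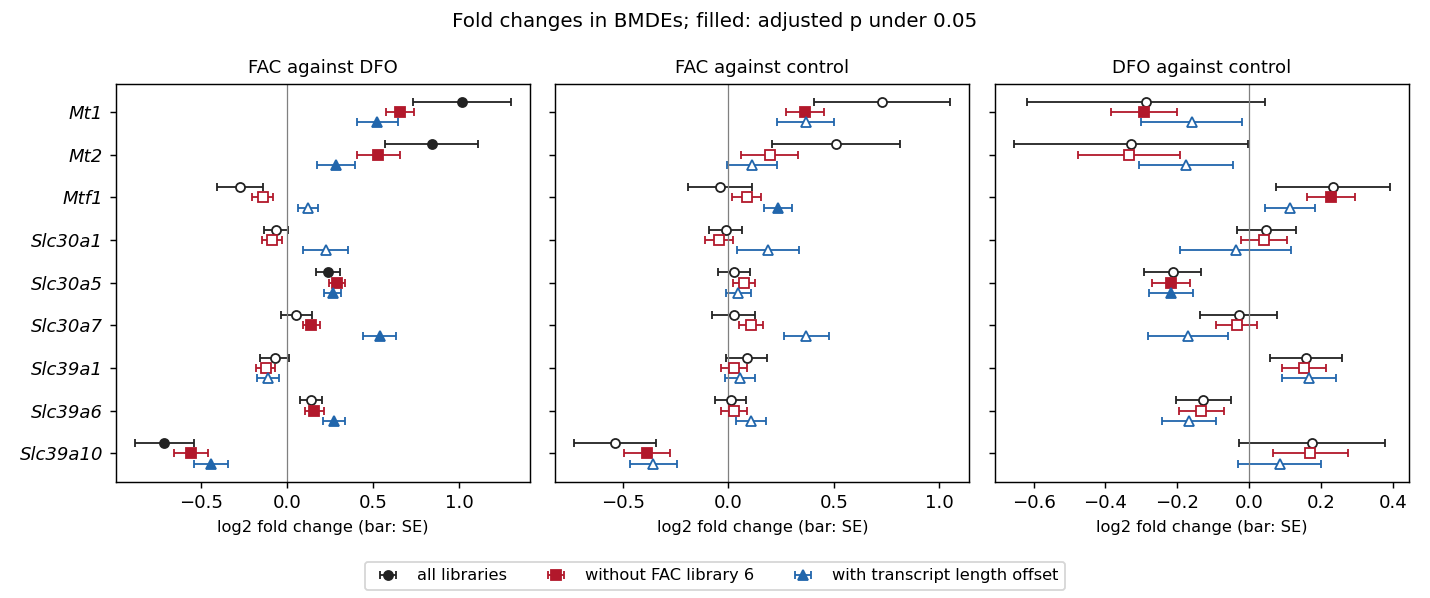
Log2 fold change (edgeR, bar: SE) of each gene in the 3 BMDE comparisons with all libraries, without FAC library 6 and with a transcript length offset; filled symbols have an adjusted p under 0.05. Mt1 stays right of 0 for FAC against DFO in all 3 fits (1.02, 0.66 and 0.53), and Slc39a10 stays left of 0 (-0.71, -0.56 and -0.44).

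For DFO against control, none of the 9 was called in the edgeR fit of all 3 arms, where 11.6% of all genes were called (6.46% higher and 5.12% lower); DESeq2 also called 0, and 1 of the 9 had an unadjusted p under 0.05. The DFO and control libraries did not overlap for 6 of the 9, against 65.7% of all genes tested. The log2 fold changes ran from -0.33 to 0.23, with a median of -0.03, against 0.00 over all genes. Leaving out FAC library 6 gave 3 calls (Mtf1, Mt1 and Slc30a5), and fitting the DFO and control libraries alone gave 6. The fit of those libraries alone also called many more genes in all. The shares of all genes given in this paragraph belong to the fit with all libraries and are not to be set against such alternatives. For FAC against control, edgeR and DESeq2 each called 0 of 9, 2 had an unadjusted p under 0.05, and 6.04% of all genes were called by edgeR (1.76% higher and 4.28% lower); 2 of the 9 did not overlap between the arms, against 36.1% of all genes, and without FAC library 6 edgeR called Mt1 and Slc39a10.

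Of the 5 genes of the iron panel, 2 were higher and 2 lower for FAC against DFO, 1 was higher for DFO against control, and 1 was higher and 1 lower for FAC against control. Of all genes, 48.2%, 11.6% and 6.04% were called in the same comparisons with all libraries and no offset. Tfrc, the transferrin receptor, was lower with FAC than with DFO (log2 fold change -0.59, adjusted p = 5.43e-05, edgeR) and lower than in controls (-0.60, adjusted p = 0.00178), but did not pass for DFO against control (-0.01, adjusted p = 0.933). Slc40a1, the iron exporter ferroportin, was lower with FAC than with DFO (-0.82, adjusted p = 6.26e-06) and higher with DFO than in controls (0.58, adjusted p = 0.00167). Hmox1, which degrades heme, was higher with FAC than with DFO (0.46, adjusted p = 0.0125) and than in controls (0.56, adjusted p = 0.0485). Ftl1 (ferritin light chain) was higher with FAC than with DFO (0.72, adjusted p = 0.00653), and Fth1 (ferritin heavy chain) was not called in any of the 3 comparisons with all libraries and no offset. For FAC against DFO, 2 were higher and 3 lower both without FAC library 6 and with the length offset, so Fth1 was called there. For DFO against control 2 were higher and 0 lower in both settings. For FAC against control 2 were higher and 2 lower without FAC library 6, and 2 higher and 1 lower with the offset.

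Cell type markers moved with the same arms. The summed level of 6 eosinophil markers was 47915 to 57387 CPM in FAC libraries, 16396 to 19348 CPM in DFO libraries and 36423 to 37075 CPM in control libraries. The sum of 8 neutrophil markers was 6024 to 8715 CPM in FAC, 15650 to 17548 CPM in DFO and 8566 to 10211 CPM in control libraries, and that of 6 progenitor markers was 846 to 953 CPM in FAC, 1701 to 1754 CPM in DFO and 1139 to 1204 CPM in control libraries. None of those markers was at 0 in all libraries of an arm. The 7 macrophage markers summed to 476 to 766 CPM in FAC, 320 to 362 CPM in DFO and 427 to 459 CPM in control libraries, and the 8 erythroid markers to under 26.0 CPM in all 9. The order of the macrophage sums was that of Vcam1, with means of 309 CPM in FAC, 63.8 CPM in DFO and 190 CPM in control BMDEs. C1qa, C1qb and C1qc were not called in any BMDE comparison in the edgeR fit with all libraries. Without FAC library 6, 1 of the 6 macrophage markers tested was higher and 4 were lower for FAC against DFO, with C1q among those lower. Mertk was lower with FAC than with DFO (log2 fold change -0.56), and Spic was higher with DFO than in controls (0.79). The 6 B cell markers summed to 88.3 to 117 CPM in FAC, 79.1 to 86.5 CPM in DFO and 144 to 153 CPM in control libraries. In such bulk samples fewer cells of a type and less RNA per cell cannot be told apart, and the part of cell make-up in the metal gene differences was not tested.

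Zinc transporters outside the 9 also differed with DFO and FAC, and for FAC against DFO some of them did so by more than any of the 9. Of 18 listed, 13 could be tested. For FAC against DFO, 7 were higher and 2 were lower (23.5% and 24.8% of all genes), led by Slc39a2, a zinc importer, at 8.12 ± 1.16 CPM in FAC (n = 4) and 3.55 ± 0.0306 CPM in DFO BMDEs (n = 3). Its log2 fold change was 1.19 (SE 0.133, adjusted p = 0.000107, edgeR). Slc39a14, which carries zinc, iron and manganese, had the next largest change, -1.04 (adjusted p = 0.000132), and Slc30a2, a vesicular zinc exporter, was at 0.65 (adjusted p = 0.000136). For DFO against control 2 were lower and 0 higher, against 5.12% and 6.46% of all genes. They were Slc39a2, at 3.55 ± 0.0306 CPM in DFO and 7.11 ± 0.0723 CPM in control BMDEs (adjusted p = 0.00465, edgeR), and Slc30a2 at -0.48 (adjusted p = 0.00997). For FAC against control only Slc39a14 among the 13 was called in the edgeR fit with all libraries, at -0.73 (adjusted p = 0.0164). In that fit 6.04% of all genes were called. Without FAC library 6 the counts were 8 higher and 3 lower for FAC against DFO, 1 and 4 for DFO against control, and 1 and 1 for FAC against control. The length offset gave 8 and 1, 0 and 4, and 0 and 1 in the same comparisons. Both settings had their own totals of called genes, so the shares of the fit with all libraries do not apply to them.

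Another list held the metallothioneins Mt3 and Mt4 and 3 other MTF1 targets known in mouse, of which 3 genes could be tested. Pgf (placental growth factor) was higher with FAC than with DFO, at 1.96 ± 0.623 CPM in FAC and 0.756 ± 0.124 CPM in DFO BMDEs (log2 fold change 1.36, SE 0.285, adjusted p = 0.00404, edgeR). Against the controls, edgeR and DESeq2 each called 0 of these 3 with DFO and 0 with FAC; 0 and 1 had an unadjusted p under 0.05.

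Against resting eosinophils, T2 eosinophils had higher Mt1, Mt2, Mtf1, Slc30a5, Slc39a1 and Slc39a6, and lower Slc30a1, Slc30a7 and Slc39a10. All 9 genes were called, but 76.1% of all genes tested were called in this comparison (38.2% higher and 37.9% lower), and the 6 higher of 9 are to be read against that. T2 and resting libraries did not overlap for any of the 9, against 77.7% of all genes. The median log2 fold change of the 9 was 0.44, against -0.01 over all genes.

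Mt1 had 20.1, 18.3 and 20.7 CPM in T2 libraries 1, 2 and 3, against 7.86, 9.04 and 5.26 CPM in resting libraries. Every T2 library had at least 2 times the level of every resting library, and the log2 fold change was 1.41 (SE 0.139, adjusted p = 1.45e-07, edgeR). Mt2 had 2.39, 2.25 and 2.13 CPM in T2 libraries, against 0.505, 1.58 and 0.810 CPM in resting libraries (log2 fold change 1.20, SE 0.351, adjusted p = 0.00587). The balance of short and long transcripts differed little, from -0.06 to 0.13 in T2 libraries and from -0.04 to 0.03 in resting libraries. With the length offset Mt1 was at 1.43 (adjusted p = 1.11e-07) and Mt2 at 1.26 (adjusted p = 0.00427). The authors' deposited table gave log2 ratios of 1.19 for Mt1 and 1.00 for Mt2.

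For Mtf1 the change was small: 36.3, 36.2 and 35.4 CPM in T2 libraries, against 31.8, 32.8 and 33.5 CPM in resting libraries. On the log2 scale T2 against resting was at 0.14 (SE 0.0594, adjusted p = 0.0495, edgeR). It was 0.24 with the length offset (adjusted p = 0.00141), whereas DESeq2 gave an adjusted p of 0.147 and upper-quartile scaling moved the change to 0.02 (adjusted p = 0.776). Leaving out resting library 1, 2 or 3 or T2 library 1 or 2 also ended the call. The authors' deposited table gave a log2 ratio of 0.52 with an FDR of 0.179.

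Slc30a1 fell, to 13.3, 15.8 and 12.7 CPM in T2 libraries, against 21.7, 23.6 and 24.6 CPM in resting libraries. Its log2 fold change was -0.74 (SE 0.0933, adjusted p = 2.35e-06, edgeR) and -0.69 with the length offset. Slc30a5 rose, with 80.6, 77.3 and 82.7 CPM in T2 libraries against 62.5, 57.9 and 57.5 CPM in resting libraries (0.44, SE 0.0557). Slc30a7 fell, with 68.8, 71.4 and 68.0 CPM in T2 libraries against 84.9, 90.0 and 90.8 CPM in resting libraries (-0.35, SE 0.0526). Their adjusted p-values were 2.86e-06 and 1.68e-05.

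The importers went in different directions. Slc39a1 had 51.1, 57.3 and 59.6 CPM in T2 libraries, against 34.1, 30.1 and 33.1 CPM in resting libraries (log2 fold change 0.79, SE 0.0709, adjusted p = 4.62e-08, edgeR). Slc39a6 had 25.8, 24.4 and 26.6 CPM in T2 libraries, against 14.0, 18.03 and 13.8 CPM in resting libraries (0.74, SE 0.0975, adjusted p = 4.2e-06). Both were clear of the resting libraries. Slc39a10 had 12.1, 12.1 and 11.2 CPM in T2 libraries, against 15.0, 16.0 and 13.2 CPM in resting libraries (-0.32, SE 0.098, adjusted p = 0.00742), and its call ended without resting library 2 (adjusted p = 0.0507). In the authors' deposited table its FDR was 0.0829.

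**Figure D4:**
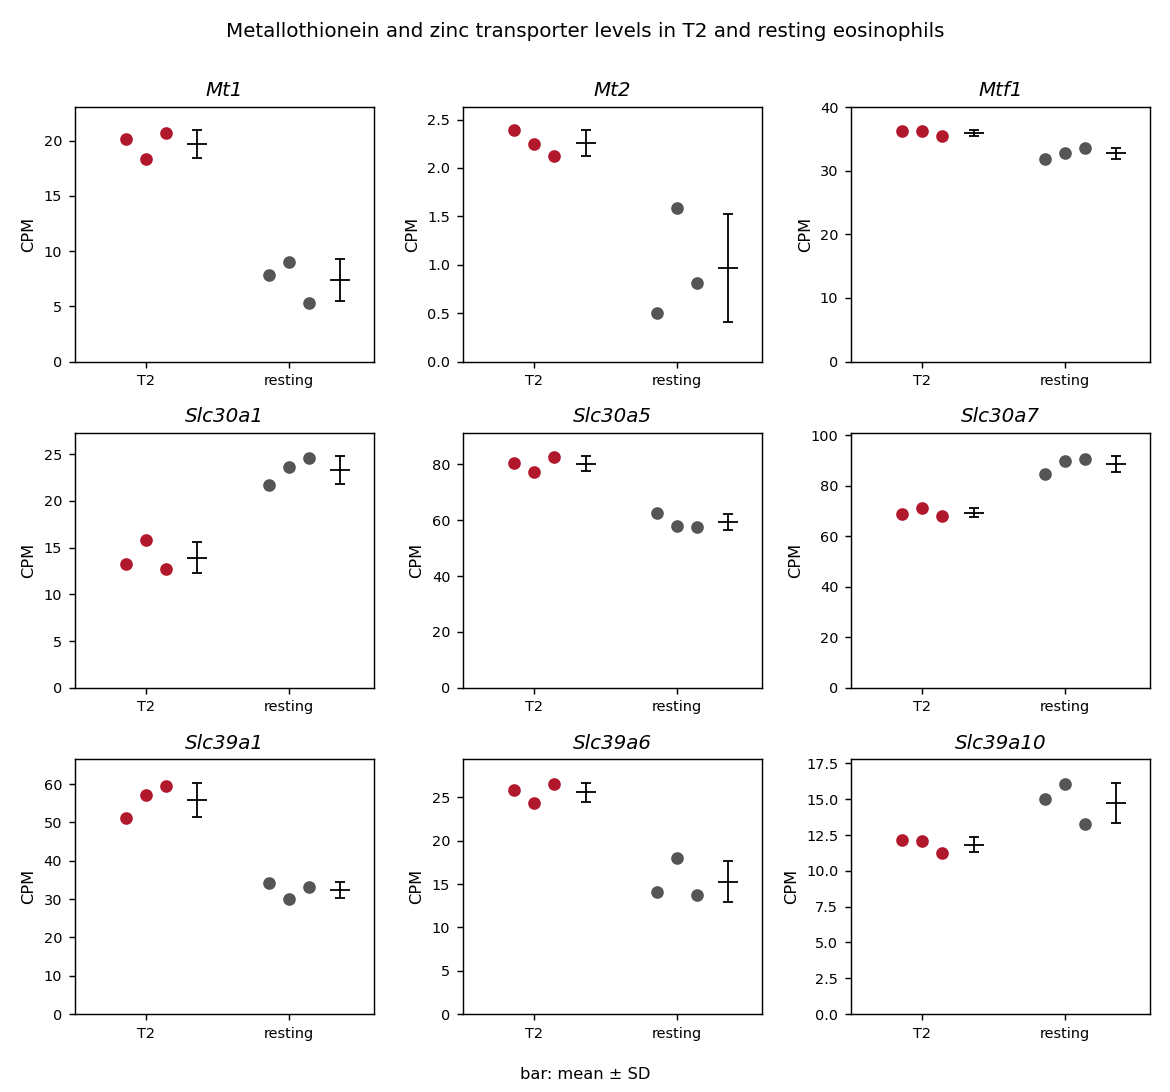
Level in CPM of each of the 9 genes in every T2 library (left) and resting library (right), with mean ± SD bars. The groups do not overlap for any gene; Mt1 is at 18.3 to 20.7 CPM in T2 and 5.26 to 9.04 CPM in resting libraries, and Slc30a1 at 12.7 to 15.8 CPM in T2 and 21.7 to 24.6 CPM in resting libraries.

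Among the other zinc transporters, 8 of 13 tested rose and 3 fell with T2 cytokines; this count and those of the lists that follow are to be read against the 76.1% of all genes called. The largest changes were those of Slc39a2 (log2 fold change 4.35, SE 0.35, adjusted p = 1.2e-08), Slc30a2 (-4.02, SE 0.408, adjusted p = 2.02e-07) and Slc39a14 (2.24, SE 0.126, adjusted p = 1.32e-10, all edgeR). Slc39a2 was at 5.34 ± 1.06 CPM in T2 and 0.251 ± 0.149 CPM in resting eosinophils, and Slc39a14 at 16.3 ± 1.17 CPM in T2 and 3.42 ± 0.453 CPM in resting eosinophils (SD, n = 3 each). All 3 tested genes of the list with MTF1 targets rose: Pgf (4.40), Gclc, a subunit of the enzyme that makes the glutathione precursor (2.03), and Selenow, selenoprotein W (0.20, adjusted p = 0.0136). Of 7 glucocorticoid response genes, 6 fell and 1 rose, led by Sgk1 (-3.22), Tsc22d3 (-2.53) and Zbtb16 (-1.50) among those that fell; the 1 that rose was Fkbp5 (0.34), which is named here after its value was seen. Their part in the metallothionein difference was not tested. Iron genes moved as well, with Hmox1 (4.93), Fth1 (3.69), Tfrc (2.19) and Ftl1 (1.52) higher and Slc40a1 (-1.06) lower. Cell type markers differed with the treatment: the 6 eosinophil markers summed to 3497 to 3677 CPM in T2 and 4680 to 4948 CPM in resting libraries, the 8 neutrophil markers to 762 to 800 CPM in T2 and 1951 to 2185 CPM in resting libraries, and the 6 progenitor markers to 890 to 930 CPM in T2 and 585 to 617 CPM in resting libraries. By gene, 5 eosinophil markers were called lower and 1 higher (Siglecf, log2 fold change 0.28). Of 5 progenitor markers tested, 2 were called higher and 1 lower, and of 8 neutrophil markers 0 higher and 5 lower. Macrophage markers summed to at most 19.2 CPM and erythroid and B cell markers to at most 101 CPM in any of the 6 libraries. Their part in the metal gene changes was not tested.

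Bone marrow eosinophils had higher Mt2 and lower Slc39a6 than GMPs, and the other 7 genes did not pass edgeR's test with all libraries and no length offset. These 2 of 9, 1 in each direction, compare with 19.8% of all genes called (13% higher and 6.78% lower). Bone marrow eosinophil and GMP libraries did not overlap for 6 of the 9, against 48.3% of all genes. In the bone marrow eosinophil libraries 8 neutrophil markers summed to more (32005 to 194546 CPM) than 6 eosinophil markers (16183 to 29770 CPM). The differences below are therefore those of whole libraries, not of eosinophils alone.

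Mt2 was at or near 0 counts in GMPs. It had 0.908, 3.38 and 4.21 CPM in bone marrow eosinophil libraries 1, 2 and 3, against 1, 0 and 1 counts in the GMP libraries. The ratio of the pooled levels (summed counts over summed effective library sizes) was 126, with an exact 95% counting interval of 34.4 to 1049 that covers counting error only, from 188 counts in eosinophils and 2 in GMPs. The fitted log2 fold change (6.81, SE 1.18, adjusted p = 0.0099, edgeR) depends on the prior count, and leaving out any 1 GMP library ended the call (adjusted p from 0.0510 to 0.0698). Mt1 was present in the same GMP libraries at 976, 683 and 1276 counts, whereas bone marrow eosinophils had 18.4 to 53.0 Mt1 counts for each Mt2 count.

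Mt1 had 48.1, 62.2 and 127 CPM in bone marrow eosinophil libraries 1, 2 and 3, against 29.3, 21.9 and 40.8 CPM in GMP libraries. The groups did not overlap, but the log2 fold change of 1.36 (SE 0.414, adjusted p = 0.0608, edgeR) did not pass, and it was called at 1.57 without bone marrow eosinophil library 1 (adjusted p = 0.0341) and at 0.84 without library 3 (adjusted p = 0.0373). With the length offset it was 0.20 (adjusted p = 0.536). The balance of short and long transcripts was -0.15, 0.35 and 1.59 in the bone marrow eosinophil libraries and -0.60, -0.97 and -0.37 in the GMP libraries. All GMP libraries thus lay below all bone marrow eosinophil libraries, and length balance and cell type cannot be told apart here. Mt2 stayed called with the offset, at 5.51 (adjusted p = 0.0133). Mtf1 had 31.8, 30.8 and 26.2 CPM in bone marrow eosinophils, against 21.9, 24.6 and 20.8 CPM in GMPs (0.40, SE 0.203, adjusted p = 0.205), and was called with the offset (0.90, adjusted p = 0.0175).

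Slc39a6 had 37.2, 43.2 and 18.8 CPM in bone marrow eosinophil libraries, against 111, 89.5 and 100.1 CPM in GMP libraries. Eosinophil library 3 was lowest. With all libraries the log2 fold change was -1.60 (SE 0.316, adjusted p = 0.0158, edgeR) and -1.46 with the length offset (adjusted p = 0.0152). Slc39a10 had 19.1, 17.5 and 2.53 CPM in bone marrow eosinophil libraries, against 61.5, 57.2 and 48.0 CPM in GMP libraries. Its log2 fold change of -2.08 (SE 0.66, adjusted p = 0.0684) did not pass with all libraries and was -1.60 without eosinophil library 3 (adjusted p = 0.00037). Slc39a1 had 68.3, 62.2 and 52.0 CPM in bone marrow eosinophils, against 55.8, 51.4 and 60.3 CPM in GMPs, and overlapped (0.12, SE 0.175, adjusted p = 0.645).

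Slc30a5 had 46.3, 21.9 and 22.8 CPM in bone marrow eosinophil libraries, against 64.5, 93.5 and 54.6 CPM in GMP libraries (log2 fold change -1.22, SE 0.363, adjusted p = 0.0575, edgeR), and was called without eosinophil library 1 (-1.70, adjusted p = 0.0137) or library 3 (-1.06, adjusted p = 0.0412). Slc30a1 was low in both, with 2.25, 0.42 and 3.37 CPM in bone marrow eosinophils and 0.84, 0.45 and 0.42 CPM in GMPs, and the groups overlapped. Slc30a7 overlapped as well, at 50.7 to 72.7 CPM in bone marrow eosinophils and 65.8 to 68.4 CPM in GMPs. Leaving out GMP library 1, 2 or 3 left 0 of the 9 called in edgeR, with Mt2 at adjusted p-values from 0.051 to 0.0698 and Slc39a6 from 0.0579 to 0.0763, whereas DESeq2 with all libraries called 5.

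**Figure D5:**
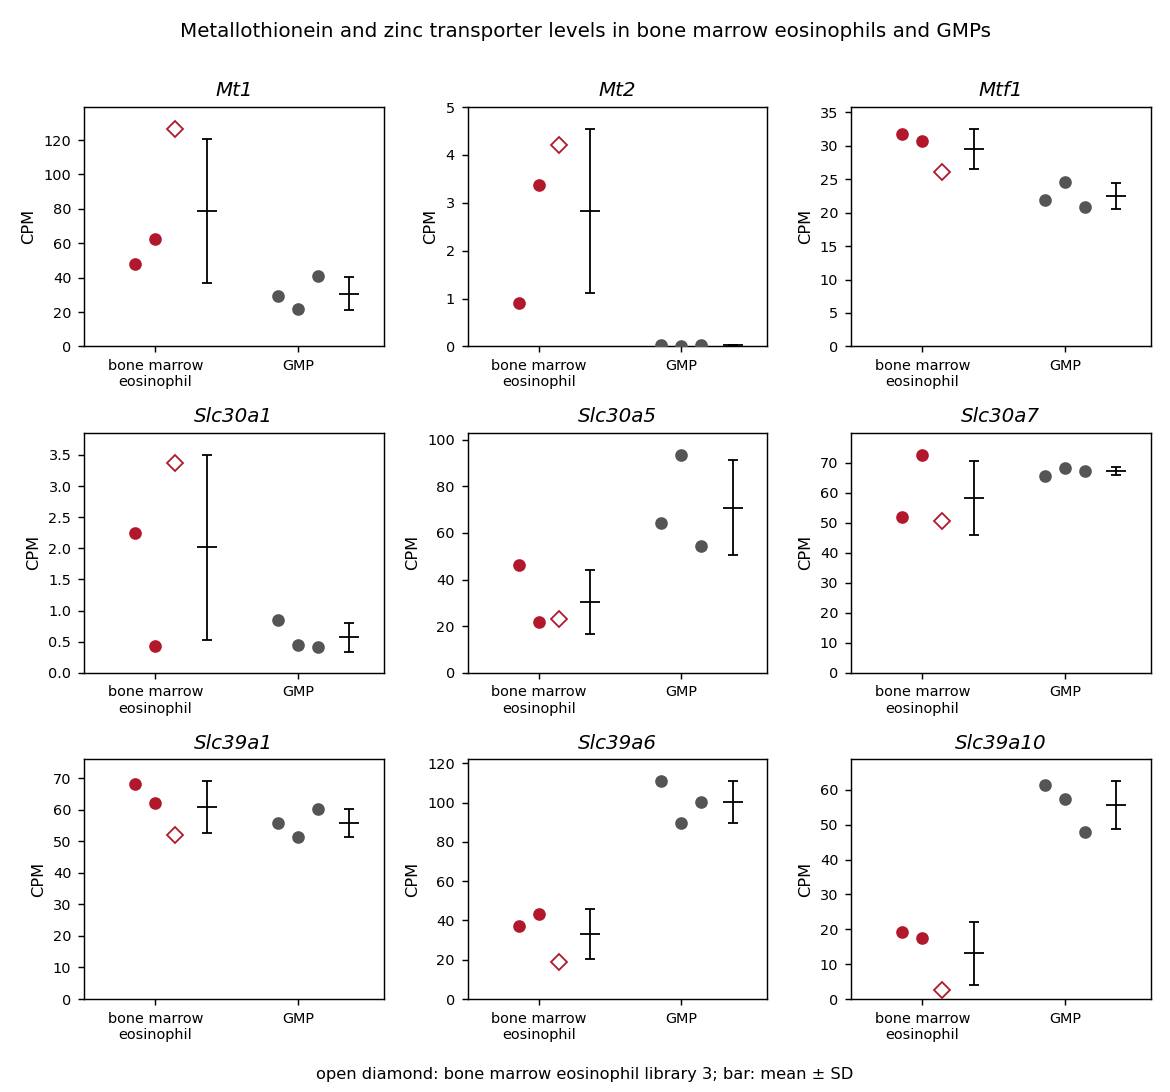
Level in CPM of each of the 9 genes in every bone marrow eosinophil library (left) and GMP library (right), with mean ± SD bars and bone marrow eosinophil library 3 as an open diamond. Mt2 is at or near 0 in GMPs, Slc39a6 lies lower in bone marrow eosinophils (18.8 to 43.2 CPM) than in GMPs (89.5 to 111 CPM), and Slc39a1 overlaps.

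Of the 12 other zinc transporters tested, 2 were higher and 0 lower in bone marrow eosinophils (13% and 6.78% of all genes). They were Slc30a2 (log2 fold change 4.70, SE 0.967, adjusted p = 0.0183, edgeR) and Slc39a11 (0.76, SE 0.172, adjusted p = 0.0251). Without bone marrow eosinophil library 3 these counts were 3 and 1, in a fit with its own total of called genes. Selenow was higher at 1.55 (adjusted p = 0.021) among the 2 tested genes of the list with MTF1 targets. With the length offset edgeR called 0 of those 2, with 1 at an unadjusted p under 0.05. In the iron panel Hmox1 (6.15), Slc40a1 (5.72), Ftl1 (1.27) and Fth1 (1.16) were higher. With the length offset 2 of the 5 panel genes were called, both higher. The bone marrow eosinophil libraries also carried other cells' genes. The 8 neutrophil markers summed to 32005 to 194546 CPM in bone marrow eosinophils, against 61.0 to 84.1 CPM in GMPs, and the 8 erythroid markers to 1216 to 2681 CPM in bone marrow eosinophils, against 14.5 to 18.3 CPM in GMPs. The 7 macrophage markers summed to 1268 to 2249 CPM in bone marrow eosinophils, against 17.9 to 23.1 CPM in GMPs, and the 6 B cell markers to 289 to 593 CPM in bone marrow eosinophils, against 40.5 to 57.1 CPM in GMPs. Eosinophil markers summed to 16183 to 29770 CPM in bone marrow eosinophils and 89.0 to 241 CPM in GMPs, and progenitor markers to 29502 to 58416 CPM in bone marrow eosinophils and 49819 to 58090 CPM in GMPs. By gene, edgeR called 1 of 6 progenitor markers higher and 3 lower in bone marrow eosinophils. Their median log2 fold change was -1.17. The part of these other cells in the metal gene differences was not tested.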

How the data were processed

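The data are 3 deposited tables of values per gene from poly(A) RNA sequencing of 21 libraries. Per the submitters' processing notes, fastp 0.18.0, Bowtie2 2.2.8, HISAT2, StringTie 1.3.1, RSEM and the mm10 build were used, with no role given; the strand setting is not given in the sources used here. The BMDE table and the table of bone marrow eosinophils and GMPs hold expected counts (estimated, not normalized, deposited by the authors), which were rounded, and the authors' TPM. The T2 table holds deposited whole read counts, the authors' FPKM, and the authors' own log2 ratio, p-values and FDR. TPM and FPKM were used mainly to compare levels between genes, and none of the tests run here used them.

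A symbol was matched for 16596 of the 16645 identifiers of BMDEs, for 22219 of 22274 with T2 and for 15899 of 15945 with GMPs. Mt1 and Mt2 have no symbol in the T2 table and were found by Ensembl identifier. A separate edgeR fit (version 4.0.16, with R 4.3.3) was made for each table, with the 3 BMDE arms together, after filterByExpr and TMM scaling, and tested by quasi-likelihood F. The SE is the log2 fold change divided by the root of F. The bone marrow eosinophil and GMP, T2 and BMDE fits covered 12214, 11345 and 12607 genes. Comparisons that share arms are not independent. The fits were tested on simulated data with 200 changed genes.

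Alternatives were DESeq2 1.42.0, upper-quartile factors, no filter, each library left out, the replicate number as a block, only the 2 arms compared, Mt1 and Mt2 counts summed and, added after seeing the data, an offset for a trend on transcript length (median GENCODE M21 transcript, known for 96.9%, 99.9% and 97.2% of their tested genes). The members and the lists (other zinc transporters, other metallothioneins and MTF1 targets, copper handling, manganese handling, magnesium transport, iron panel, glucocorticoid response and 6 lists of cell type markers) were chosen with earlier results of these data known. The iron panel is described in each comparison. Of each other metal list and the glucocorticoid list, counts and at most 3 called genes with the largest absolute log2 fold change are named; the 5 genes most like Mt1 and Slc30a1 are by Pearson's r. Replicate numbers did not pair samples.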

Additional observations from a re-analysis of the deposited data

How the results depend on the processing

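All 9 genes kept their direction in T2 against resting eosinophils under every alternative run, and 7 to 9 were called. In FAC against DFO BMDEs, Mt1, Mt2, Slc30a5 and Slc39a10 kept their direction under every alternative; leaving out 1 library gave between 1 and 6 calls. For bone marrow eosinophils against GMPs, DESeq2 called 3867 genes and 5 of the 9, a replicate block gave 1419 and 4, and leaving out 1 library gave 747 to 4623 genes and 0 to 5 of the 9. Same-numbered libraries deviated together with correlations of 0.01, 0.00 and 0.12 there, and -0.01, -0.02 and 0.03 between T2 and resting libraries, so the numbers were taken as names; in T2 the replicate block ended the call of Mtf1 only (adjusted p = 0.0813). For DFO against control, only the 2 arms compared gave 5982 genes and 6 of the 9, the length offset 2820 and 1, and leaving out 1 library 217 to 4899 genes and 0 to 3 of the 9. For FAC against control, the counts were 1316 genes with DESeq2 (554 higher, 762 lower, against 222 and 539 in edgeR), 116 with only the 2 arms, 1458 (591 higher, 867 lower) and 1 of the 9 with the length offset, and 76 to 2728 genes and 0 to 2 of the 9 leaving out 1 library. Upper-quartile scaling moved the median of all genes in T2 to -0.13 and no filter moved it to -0.14.

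Signs turned only for genes that were not called in the edgeR fit with all libraries. Slc39a1 ran from -0.00104 to 0.219 in bone marrow eosinophils against GMPs and from -0.124 to 0.00848 for FAC against DFO when 1 library was left out. Slc30a7 likewise ran from -0.0465 to 0.00141 for DFO against control and from -0.00475 to 0.107 for FAC against control, and was at 0.353 in bone marrow eosinophils with the length offset. Slc30a1 turned with the length offset (-0.0376 for DFO against control, 0.187 for FAC against control, 0.225 for FAC against DFO). For FAC against control it was also at 0.00669 with DESeq2 and 0.00184 with only the 2 arms, and ran from -0.0448 to 0.0268 leaving out 1 library. Mtf1 ran from -0.104 to 0.0864 for FAC against control leaving out 1 library, and was at 0.237 there and 0.123 for FAC against DFO with the length offset. Slc39a6 ran from -0.0381 to 0.0624 for FAC against control leaving out 1 library. The cause was not tested.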

Other observations

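Counts of called genes in the lists below are to be read against the shares of all genes called: 48.2% for FAC against DFO, 11.6% for DFO against control, 6.04% for FAC against control, 76.1% for T2 against resting and 19.8% for bone marrow eosinophils against GMPs. These shares belong to the fits with all libraries and no length offset. Counts that leave out a library or use the offset come from fits with other totals of called genes and are not to be read against them. Among copper genes, Cp, which encodes ceruloplasmin, a copper-bearing ferroxidase, was at 0.844 ± 0.188 CPM in FAC (n = 4), 4.38 ± 0.70 CPM in DFO (n = 3) and 3.04 ± 0.572 CPM in control BMDEs (n = 2, SD). Its log2 fold change was -2.37 for FAC against DFO (SE 0.208, adjusted p = 2.63e-05, edgeR) and -1.84 for FAC against control (SE 0.239, adjusted p = 0.00338). Of 15 copper genes tested, 4 were higher and 3 lower for FAC against DFO, with Atp7a, a copper exporter, at -0.95 and Atox1, a copper chaperone, at 0.74. For DFO against control 1 was higher (Slc31a2, 0.34, adjusted p = 0.0381) and for FAC against control 1 was lower, Cp. With T2 cytokines 7 were higher and 2 lower, led by Atp7a (1.65), Ccs, the copper chaperone of superoxide dismutase (-1.64), and Cutc (-1.20). In bone marrow eosinophils 3 of 16 were higher and 2 lower than in GMPs, led by Cox17 (2.45), Slc31a1, the copper importer (-1.36), and Sco1 (-0.89). Without bone marrow eosinophil library 3 these counts were 6 and 4, and with the length offset 1 and 3. Without FAC library 6 the copper counts (higher and lower) were 4 and 3 for FAC against DFO, 3 and 1 for DFO against control and 2 and 2 for FAC against control; with the length offset they were 2 and 3, 1 and 0, and 0 and 1.

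Slc41a2, a magnesium transporter, was lower with FAC and higher with DFO than in controls. It was at 6.90 ± 1.16 CPM in FAC, 18.1 ± 0.195 CPM in DFO and 10.4 ± 0.555 CPM in control BMDEs. The log2 fold change was -1.39 for FAC against DFO (adjusted p = 2.29e-05, edgeR), 0.79 for DFO against control (adjusted p = 0.00817) and -0.60 for FAC against control (adjusted p = 0.0366). It was the called magnesium gene of 12 tested in each of the 2 comparisons with control; for FAC against DFO 1 was higher and 6 lower, with Nipa1 at -1.03 and Slc41a1 at -0.63, and with the length offset 5 were higher and 5 lower. The offset gave 3 higher and 2 lower for DFO against control, and 1 higher and 0 lower for FAC against control, so the call of Slc41a2 as lower with FAC than in controls ended. Without FAC library 6 there were 4 higher and 6 lower for FAC against DFO, 5 higher and 2 lower for DFO against control and 1 each way for FAC against control. With T2 cytokines 4 magnesium genes were higher and 6 lower, with Nipa1 at -3.44, Slc41a2 at 3.07 and Cnnm2 at -2.81. In bone marrow eosinophils 1 of 11 was higher (Slc41a3, 2.26) and 1 lower (Trpm7, -1.67) than in GMPs.

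Of 5 manganese handling genes, Slc11a1, a phagosomal transporter of divalent metals, was at 1076 ± 13.7 CPM in T2 and 31.6 ± 0.0574 CPM in resting eosinophils (log2 fold change 5.09, adjusted p = 1.32e-19, edgeR), where 4 of the 5 rose, among them Sod2 (1.53) and Slc11a2 (0.66), and 1 fell. Slc11a1 was also higher in bone marrow eosinophils than in GMPs (5.33, adjusted p = 0.000399, the 1 called of 5) and higher with DFO than in controls (0.44, adjusted p = 0.0461, the 1 called of 5). For FAC against DFO it was lower (-0.38), with Tmem165 (0.31) and Slc11a2 (0.27) higher. Of the 5, edgeR called 0 for FAC against control, DESeq2 called 0 and 0 had an unadjusted p under 0.05. Glucocorticoid response genes were 3 higher of 7 in bone marrow eosinophils, led by Sgk1 (3.54), Tsc22d3 (1.51) and Zbtb16 (1.23), and for FAC against DFO 1 was higher (Dusp1, 0.44) and 2 lower (Sgk1, -0.44; Per1, -0.30). For DFO against control edgeR called 0 of the 7 and DESeq2 1, and for FAC against control both called 0; 1 and 0 had an unadjusted p under 0.05. Without FAC library 6, edgeR called 2 glucocorticoid genes higher and 1 lower for DFO against control and 2 higher and 3 lower for FAC against DFO. In that setting 1 manganese gene was higher and 2 were lower for DFO against control. Without bone marrow eosinophil library 3, 4 glucocorticoid genes were higher and 1 lower, and with the length offset 2 were higher.

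Across the 9 BMDE libraries the genes whose log2(CPM + 1) was most like that of Mt1 were Oaz1 (Pearson r = 0.999), Cox6a1, Tspo, Rps16 and Ube2t (the last at 0.996), with Mt2 at rank 65 of 12606 (r = 0.990). Their median annotated transcripts have from 571 bases (Cox6a1) to 1116 bases (Ube2t), and all points share the libraries and their length balance. Slc39a10 stood near the other end (r = -0.979, and -0.983 without FAC library 6). The genes most like Slc30a1 were Gp1bb (r = 0.963), Gdf3, Msl3l2, Khk and Tnni2 (0.926), with Mt1 at r = 0.171, or -0.698 without FAC library 6. These are descriptions over 9 libraries in 3 arms.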
